A study of Rattus norvegicus with 12 samples.

Results

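Sorafenib is an oral cancer drug for tumours of liver, kidney and thyroid that blocks RAF and a range of receptor tyrosine kinases, and it can injure the heart. The effect of sorafenib that 14 and 28 days of dosing had in common was measured in heart RNA of rats. All 12 of the 12 libraries of the series entered, and the sorafenib minus water difference of each day counted with equal weight. Each library came from heart tissue of wild-type male SD (Sprague-Dawley) rats of 180 to 200 g. They were given 50 mg/kg sorafenib by gavage once a day, or deionized water in the same volume. The groups were sorafenib day 14 (replicates 5, 6 and 7), water day 14 (2, 3 and 7), sorafenib day 28 (2, 3 and 4) and water day 28 (2, 3 and 4). The labels give neither the part of the heart taken nor the rat behind each library, so the spread that p-values rest on may be partly technical. The title of the series concerns cardiac toxicity and alternative splicing by RBM20, a splicing factor of heart muscle.

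Growth factors such as VEGF, PDGF, SCF and GDNF bind receptor tyrosine kinases on endothelial cells, pericytes and other cells of the heart. The receptors pass the signal through RAS and RAF to the kinases MEK and ERK, whose output includes its own inhibitors, the Sprouty proteins and the ERK phosphatases. Sorafenib blocks this chain at the receptors and at RAF, and transcripts of the feedback inhibitors are widely used as a readout of ERK activity. Whole heart tissue mixes cardiomyocytes, endothelial cells, fibroblasts, pericytes and immune cells, and in such bulk samples fewer cells of a type and less RNA per cell cannot be told apart.

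Each library of day 14 held 13746366 to 18534816 counts, and 5 libraries of day 28 held 16785038 to 26403196. Sorafenib day 28 replicate 3 held 1036483 counts, so that 1 count there equals 0.965 CPM before TMM scaling. CPM is the share of a gene in its library's counts on a scale common to all libraries, and the values of genes are given with TMM-normalized library sizes. The ribosomal precursor Rn45s took 0.13 to 1.643% of counts in sorafenib libraries and 0.09766 to 0.5374% in water libraries, and mt-Rnr2 took 1.315% in sorafenib day 28 replicate 2 and at most 0.2053% elsewhere. All 8 of 8 cardiomyocyte markers were detected and none was called, with a summed level of 34340 to 53070 CPM in sorafenib and 40270 to 52330 CPM in water libraries of day 14, and of 41720 to 70230 CPM against 52980 to 79720 CPM at day 28. Of 8 alveolar markers 5 stayed below 1 CPM in all libraries, Sftpa1 at 0, and of the 3 tested 2 fell, Hopx (-0.92, mean 31.1 CPM) and Napsa (-1.61, at most 2.87 CPM). The summed level of the alveolar list was 20.41 to 40.93 CPM in sorafenib against 40.76 to 43.4 CPM in water at day 14, where the ranges overlapped, and 18.48 to 30.94 CPM against 45.87 to 50.3 CPM at day 28. Hopx had a mean of 31.1 CPM against 4.302 CPM or less for each other member, so that this sum mostly restates Hopx. The members Sftpb, Sftpc, Sftpd and Lamp3 had means of 0.00424, 0.2066, 0.01228 and 0.04563 CPM. The part of lung tissue in the fall of Hopx was not tested, nor was the part of the alveolar list in other results. Of 10 skeletal muscle markers none of 5 tested was called, Myh1 and Myod1 were at 0 in all libraries, and Acta1 and Ckm, which the heart also expresses, had means of 776 and 1350 CPM.

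Averaged over both days, 801 of 18174 genes tested (4.41%) changed with sorafenib at a Benjamini-Hochberg adjusted p below 0.05 in edgeR's quasi-likelihood test. Of these, 363 (2% of genes tested) were higher and 438 (2.41%) were lower. Most differences were small: in 585 of the 801 genes the log2 fold change was below 1 in size. The median log2 fold change was 0.77 among the higher and -0.66 among the lower genes, and -0.01 over all genes tested. With genes filtered at 5 CPM in at least 3 libraries, the split turned to 499 higher and 344 lower. The count rested on single libraries. It fell to 35 without sorafenib day 28 replicate 2 and to 60 without water day 14 replicate 3, and it stood at 1562 without sorafenib day 28 replicate 4. Without the shallow library, sorafenib day 28 replicate 3, it was 707.

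**Figure D1:**
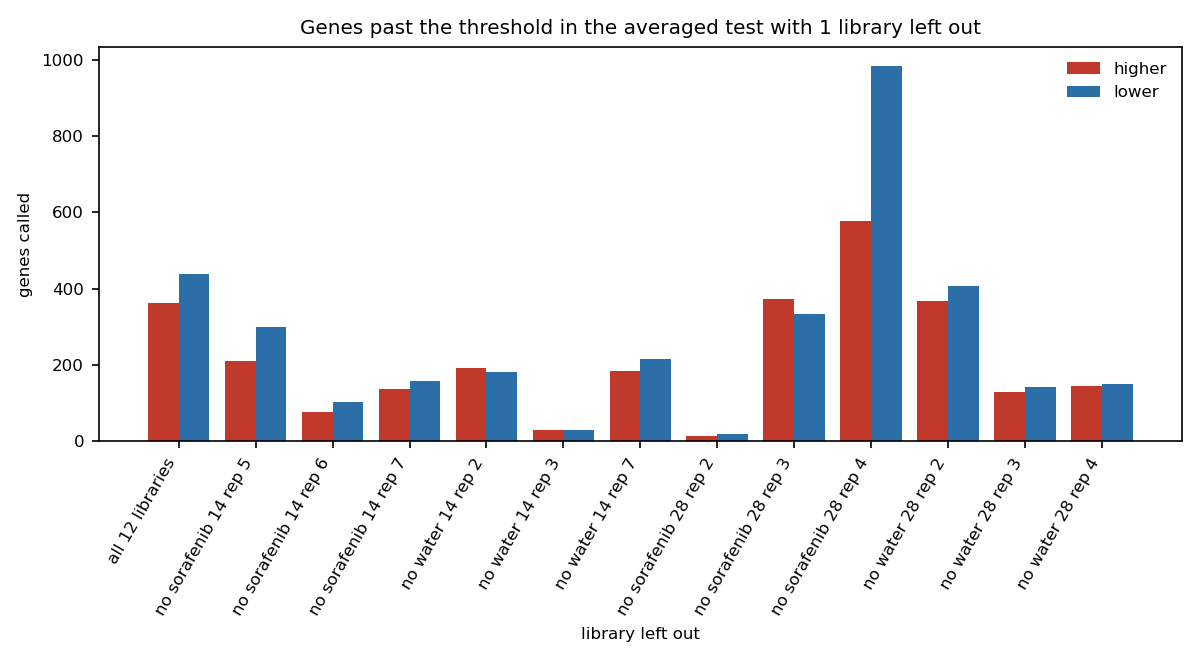
Genes past the adjusted p threshold in the averaged test (vertical axis, number of genes; higher and lower with sorafenib as separate bars) for all 12 libraries and with each library left out in turn. The bars are lowest without sorafenib day 28 replicate 2 (15 higher and 20 lower) and tallest without sorafenib day 28 replicate 4 (578 higher and 984 lower).

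The effect recurred between days that share no library. When each day was tested alone with its 6 libraries, no gene passed after adjustment at either day, while 2440 of 17406 genes (14%) at day 14 and 2531 of 17021 genes (14.9%) at day 28 had an unadjusted p below 0.05 in edgeR. DESeq2 and limma voom were run on all 12 libraries and not on the days alone. Over the 16641 genes tested at both days, 70% had the same sign at both. Of the 2358 of these genes with an unadjusted p below 0.05 at day 14, 87.7% had the same sign at day 28. At day 28, 32.49% of them had the same sign and an unadjusted p below 0.05, against 13.18% of all 16641 genes. Only 9 of them passed that level in the opposite direction (0.3817%, against 1.731% of all). The 125 genes with a p below 0.001 at day 14 had the same sign at day 28 in 94.4%, and 51.2% also had a p below 0.05 there, with 0 in the opposite direction. Read the other way, 88.39% of 2481 genes chosen at day 28 had the same sign at day 14, and 30.87% also passed there.

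Size shrank between the day that chose a gene and the day that did not. The 100 genes of smallest p at day 14 had a median size of 1.12 on the log2 scale at that day, and of 0.67 in the same direction at day 28. The 100 chosen at day 28 had 1.30 there and 0.63 at day 14. Across all 16641 genes the log2 fold changes of the days had a Pearson r of 0.46 and a Spearman rho of 0.50, as a description, since genes are not independent replicates.

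**Figure D2:**
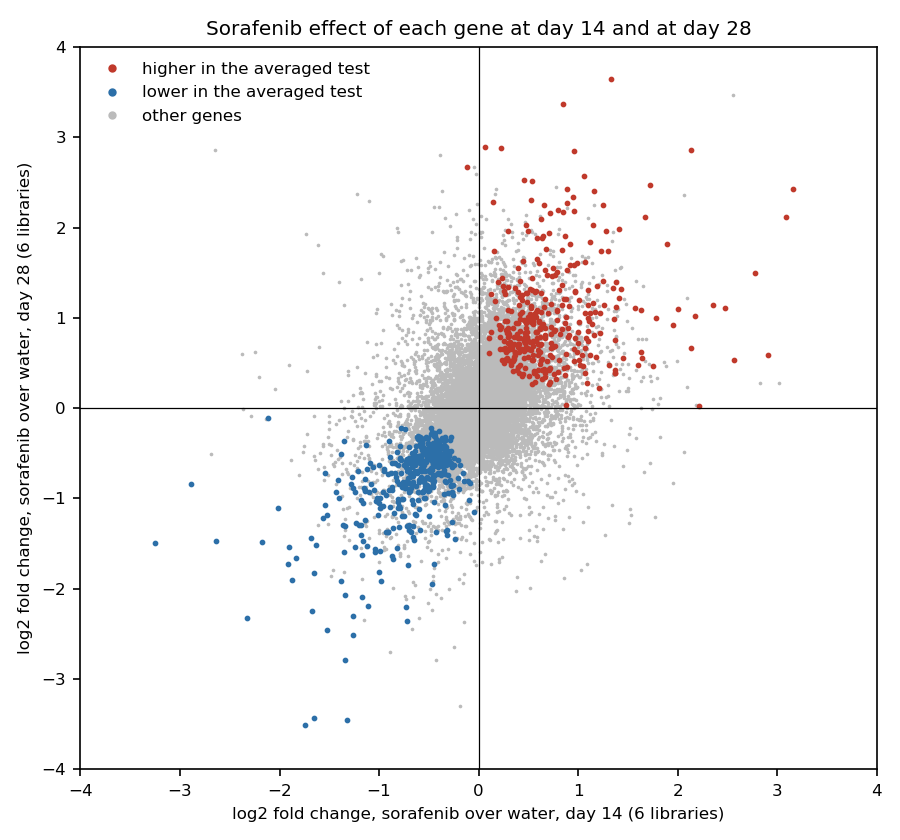
Log2 fold change of sorafenib over water at day 14 (horizontal) and at day 28 (vertical), each from its own 6 libraries, for 16641 genes. The genes called in the averaged test lie in the upper right (higher) and lower left (lower), which the averaging itself selects, and 6 genes beyond the axes are not drawn.

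Within the 801 genes, 799 had the same sign at both days and 542 had an unadjusted p below 0.05 at each day, against 761 of all genes tested (4.19%). All sorafenib libraries lay on one side of all water libraries at both days in 503 of them, 213 above and 290 below. Over all genes tested, 1054 (5.8%) were apart in this way, 444 (2.44%) above and 610 (3.36%) below, and 58 (0.319%) were apart at both days in opposite directions. These values went into the averaged test, so they describe the genes and add no support to it. The 2 genes with opposite signs were Erich6 and LOC120102367. When each day had to pass on its own (the larger p of the days, adjusted over all genes), no gene passed in edgeR. The smallest adjusted p was 0.215, 761 genes had an unadjusted p below 0.05 at each day in one direction, and DESeq2 called 6 genes and limma voom 1.

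In edgeR's fit of all 12 libraries 4 genes (0.022%) passed at day 14 and 53 (0.292%) at day 28. These counts depended on the tool and on single libraries. DESeq2 called 163 at day 14 and 698 at day 28, and limma voom 247 and 691. With 1 library left out edgeR called 0 to 25 at day 14 and 0 to 87 at day 28. Day 28 gave 0 without sorafenib replicate 2, water replicate 3 or water replicate 4 of that day, and day 14 gave 0 without any 1 of its 3 sorafenib libraries, water day 14 replicate 3, sorafenib day 28 replicate 4 or water day 28 replicate 3. The day 28 effect was the larger one in 554 of the 801 genes. The difference between the days had an unadjusted p below 0.05 in 100 of them (12.48%), 82 of which were larger at day 28, and in 803 of all genes tested (4.42%). After adjustment no gene differed between the days in edgeR (smallest adjusted p = 0.7171), while DESeq2 called 5. A difference that misses this threshold does not show that the days acted alike. Fabp4 and Ngdn were among the 10 genes that the naming rule gave for the difference, and neither passed in the averaged test. Fabp4, a fatty acid binding protein of endothelial and fat cells, stood at 226, 161 and 230.3 CPM in sorafenib against 132, 131 and 119 CPM in water libraries at day 14. Day 28 gave 262, 219.9 and 216 CPM in sorafenib against 331, 316 and 304 CPM in water, so that the sorafenib libraries were the higher ones at day 14 and the lower ones at day 28 (unadjusted p of the difference in edgeR = 0.000206). Ngdn, a nucleolar protein, had a log2 fold change of -0.40 at day 14 and 1.35 at day 28 (0.000138).

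Of the 801 calls, 29 passed whichever library was left out, 12 higher and 17 lower. Many genes named below are not among these 29. Only 9 genes passed in all 22 alternatives: Dyrk2, Galnt15, Itga6, Kit, LOC120099958, Nrp2, Pnpla3, Spry4 and Zbtb25. No called gene changed sign under any alternative. Without sorafenib day 28 replicate 2, the members of the gene lists that passed were Spry4, Kit, Ret, Nrp2, Nox4, Nos2, Fmo2, Prodh1, Pnpla3, Sqle, Dyrk2, Per2, Cry2, Itga6, Igfbp5 and Zmynd12. Without water day 14 replicate 3 they included these except Per2 and Cry2, and also Sult1a1, Amt, Clk4, Atf3, Btg2 and Hamp. All other members of these gene lists named below as called lost the call in both cases. Among the cell type markers, which are listed apart, Tppp3 kept its call without sorafenib day 28 replicate 2. Counts of list members that passed are to be read against the 4.41% of all genes that did, 2% higher and 2.41% lower. Values of single libraries are in CPM and in the order of their replicate numbers, and adjusted p-values are those of edgeR's averaged test.

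The fall of Spry4, which encodes a Sprouty protein that restrains signalling from receptor tyrosine kinases to ERK, was one of the clearest at both days. Spry4 (chromosome 18, 30436513 to 30451426 in mRatBN7.2) stood at 19.9, 12.8 and 15.9 CPM in sorafenib against 34.4, 30.9 and 45.7 CPM in water libraries at day 14. At day 28 it stood at 13.1, 18.4 and 19.3 CPM in sorafenib against 39.2, 52.6 and 43.2 CPM in water. The highest sorafenib library lay below the lowest water library at each day, and the averaged log2 fold change was -1.31 ± 0.15 (SE, adjusted p = 0.00403). Of 21 genes of ERK feedback and output, 3 fell and none rose (median -0.37). The others were Ccnd1, which encodes cyclin D1, at -0.94 ± 0.17 (SE, adjusted p = 0.0183) and the ERK phosphatase Dusp6 at -0.83 ± 0.15 (SE, adjusted p = 0.0185). Spry2 was at -0.44 ± 0.13 and Spred1 at -0.37 ± 0.11, neither past the threshold (adjusted p = 0.0615 and 0.0717). With sorafenib day 28 replicate 2 left out, 1 of the 3 passed, Spry4.

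Of 30 receptor tyrosine kinases and RAF kinases, a list of both families that is not limited to targets of sorafenib, 3 fell and 1 rose (median -0.11). Ret, the receptor of GDNF ligands, stood at 17.2, 14.6 and 15.3 CPM in sorafenib against 25.4, 31.1 and 18.5 CPM in water libraries at day 14. Day 28 gave 6.91, 6.69 and 5.25 CPM in sorafenib against 15.6, 13.6 and 17.8 CPM in water, with no overlap at either day and an averaged log2 fold change of -1.01 ± 0.15 (SE, adjusted p = 0.00798). Kit, the receptor of stem cell factor, stood at 25.6, 18.4 and 15 CPM against 50.6, 54.9 and 39 CPM in water at day 14. Its sorafenib libraries of day 28 were at 10.9, 14.2 and 18.4 CPM, against 24.1, 25.7 and 29.8 CPM in water, again without overlap (-1.08 ± 0.16 (SE, adjusted p = 0.00798)). Kit is also a mast cell marker. The summed level of the mast cell list, Kit included, was 21.5 to 31.88 CPM in sorafenib against 44.73 to 60.93 CPM in water at day 14 and 13.47 to 21.73 CPM against 31.18 to 35.29 CPM at day 28, and of its 5 members tested Kit alone was called. Kit had a mean of 27.2 CPM against 2.19 CPM or less for each other member found. The summed level therefore mostly restates Kit. The other members tested, Cpa3, Cma1, Ms4a2 and Tpsab1, were at -0.74, -0.85, -0.70 and -0.23. The part of mast cells in the fall of Kit was not tested. Kdr, the main VEGF receptor, fell by 0.73 on the log2 scale (adjusted p = 0.0215), and Igf1r, the IGF1 receptor, rose by 0.36 ± 0.09 (SE, adjusted p = 0.04).

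Dyrk2, a dual-specificity kinase known to phosphorylate p53 and a proteasome subunit, had the smallest p of all genes. It lies on chromosome 7, 54348724 to 54381363. Its libraries of day 14 were at 56.6, 73.7 and 74.3 CPM with sorafenib and 148, 170.4 and 139 CPM with water. Those of day 28 were at 51.5, 63.5 and 66.4 CPM with sorafenib and 109, 138 and 135 CPM with water. Every sorafenib library was below every water library at both days (-1.12 ± 0.12 (SE, adjusted p = 0.002)). Of 13 kinases of the DYRK, CLK and HIPK families, Dyrk2 was the only one that fell, and the CLK kinases Clk3 and Clk4 rose.

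Both neuropilins, co-receptors for VEGF and semaphorins on vessels, fell. Nrp2 (chromosome 9, 64122815 to 64238007) stood at 82, 50.6 and 57.4 CPM in sorafenib against 125, 177 and 125 CPM in water libraries at day 14 and at 35.3, 45.1 and 22.4 CPM against 100, 82.9 and 95.7 CPM at day 28. No sorafenib library reached a water library of its day (-1.34 ± 0.17 (SE, adjusted p = 0.00485)). Nrp1 was at -0.86 ± 0.16 (SE, adjusted p = 0.0183), with -0.32 at day 14 and -1.40 at day 28. Of 29 Notch and tip cell genes (genes of sprouting endothelium), 7 fell and none rose (median -0.20). The apelin receptor Aplnr was at -1.35 ± 0.26 (SE, adjusted p = 0.0197), its ligand Apln at -1.03 ± 0.21 (SE, adjusted p = 0.0231) and the Notch target Hey2 at -0.83 ± 0.22 (SE, adjusted p = 0.0462). Esm1, a secreted proteoglycan of tip cells, was near the floor, with 4, 0 and 4 counts in sorafenib and 21, 62 and 91 counts in water libraries at day 28, so its fitted fold of -2.64 is no measure of size. Vash1, an endothelial inhibitor of angiogenesis, stood at 25.3, 25.7 and 22.6 CPM against 38.9, 47.2 and 37.6 CPM in water at day 14 and at 17.9, 13.4 and 21.2 CPM against 33.3, 28.6 and 38.5 CPM at day 28 (-0.81 ± 0.12 (SE, adjusted p = 0.00798)). Vegfa, the ligand, was at 0.43 ± 0.16 (adjusted p = 0.121). Only Nrp2 of the 7 passed without sorafenib day 28 replicate 2.

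Of 13 endothelial markers tested, 3 fell (Kdr, Emcn at -0.54 and Cav1 at -0.59), none rose and the median was -0.13. Their summed level was 1915 to 2370 CPM in sorafenib against 2109 to 2552 CPM in water at day 14 and 2010 to 2124 CPM against 2120 to 2581 CPM at day 28. The part of the number of endothelial cells in the vessel genes was not tested. Among 45 guidance ligands and receptors, 4 fell and 1 rose (median -0.15). Sema7a was at -0.71 ± 0.12 (SE, adjusted p = 0.014), the netrin receptors Unc5b and Unc5c at -0.67 ± 0.13 and -1.11 ± 0.21, Plxnd1, an endothelial semaphorin receptor, at -0.70 ± 0.18, and Sema3g at 0.46 ± 0.12.

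**Figure D3:**
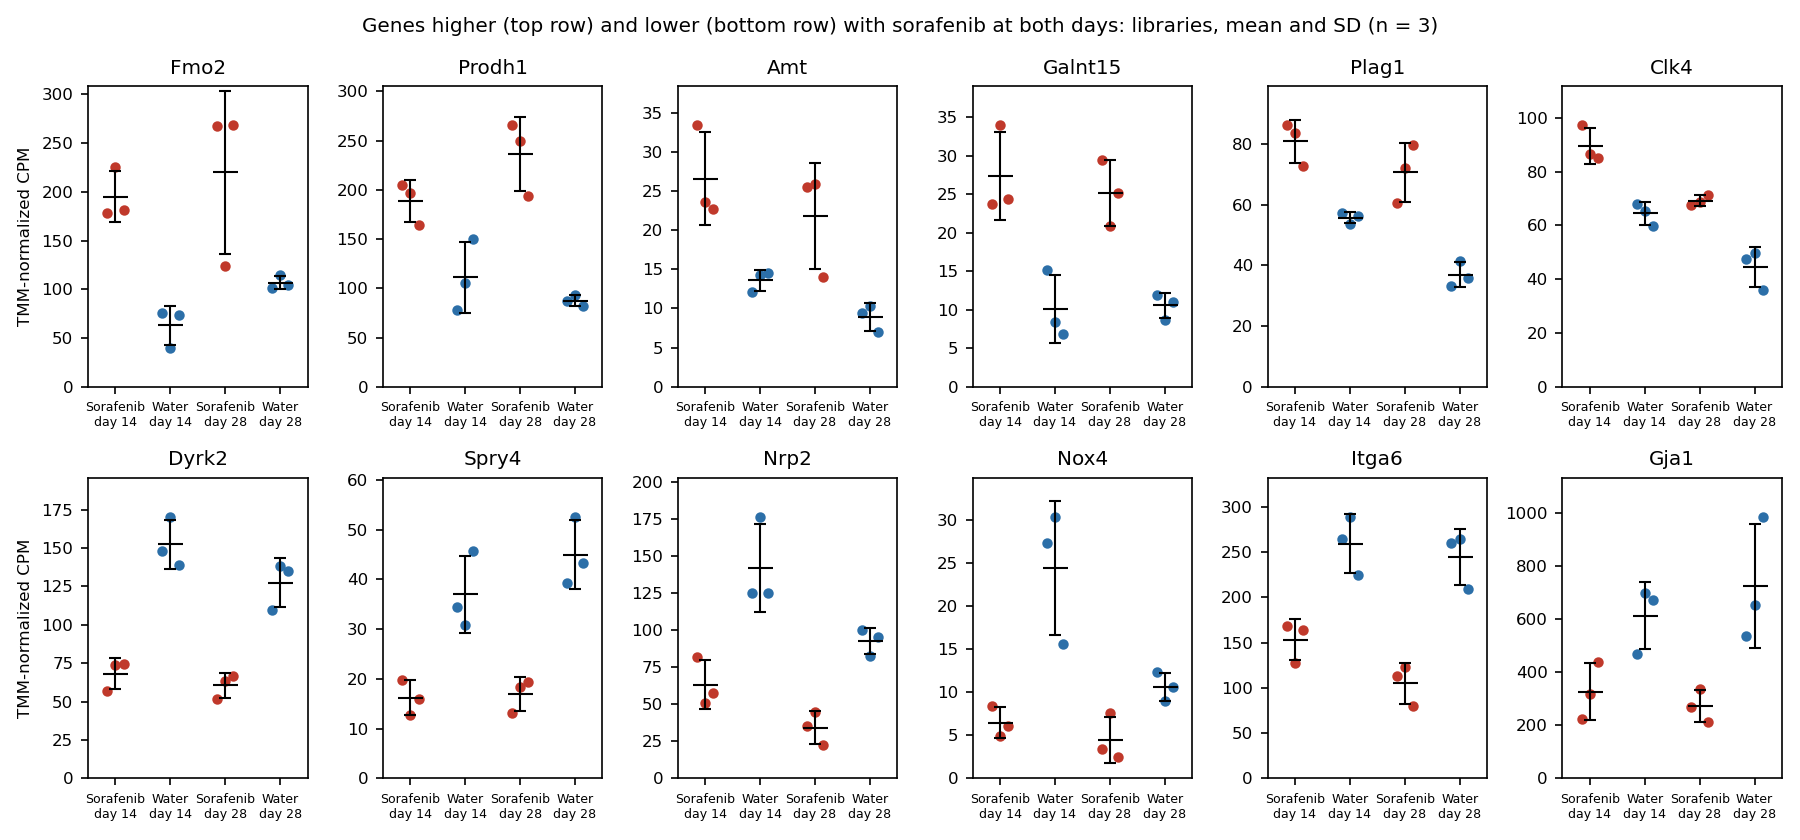
TMM-normalized CPM of 6 genes that were higher (top row) and 6 that were lower (bottom row) in the averaged test, by library, with mean and SD (n = 3) for sorafenib and water at day 14 and day 28. In each panel the sorafenib points of a day lie on one side of the water points of that day. The naming rule on smallest p required this of the genes it took, so for them the choice of genes sets the pattern.

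A laminin receptor subunit and several basement membrane genes fell. Itga6, the integrin alpha subunit of laminin receptors (chromosome 3, 56604512 to 56689428), stood at 168, 127 and 164 CPM in sorafenib against 264, 289 and 224 CPM in water at day 14. It stood at 113, 123 and 79.8 CPM in sorafenib against 260.5, 264 and 209 CPM in water at day 28, apart at both days (-0.995 ± 0.13 (SE), adjusted p = 0.00632). Of 54 basement membrane, integrin and matrix enzyme genes 6 fell and none rose (median -0.25). Lama4 was at -0.67 ± 0.13 (SE, adjusted p = 0.0215) and Lamb1 at -0.50 ± 0.12 (SE, adjusted p = 0.0349), both laminin chains, and the matrix metalloprotease Mmp15 at -0.70 ± 0.15 (SE, adjusted p = 0.0251). The collagen list had 3 of 30 members that fell, none that rose and a median of -0.26. They were Col4a1 at -0.64 ± 0.14 (SE, adjusted p = 0.029) and Col4a2 at -0.58 ± 0.14 (SE, adjusted p = 0.0381), the chains of basement membrane collagen IV, and Col15a1 at -0.79 ± 0.13 (SE, adjusted p = 0.014). Serpinh1, the collagen chaperone of the endoplasmic reticulum, stood at 118, 107 and 104 CPM in sorafenib against 151, 218 and 234 CPM in water at day 14. At day 28 it stood at 110.2, 126 and 84.5 CPM against 166, 200.1 and 233 CPM in water (-0.90 ± 0.14 (SE, adjusted p = 0.00979)). The binding protein Igfbp5 was below water at each day too (-1.04 ± 0.16 (SE, adjusted p = 0.00911)). Without sorafenib day 28 replicate 2, 1 of the 6 matrix genes passed (Itga6) and none of the collagens.

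The oxidase Nox4, which makes hydrogen peroxide, was lower in every sorafenib library of each day. Nox4 (chromosome 1, 140900886 to 141078844) stood at 8.41, 4.94 and 6.06 CPM in sorafenib against 27.3, 30.3 and 15.6 CPM in water libraries at day 14. Day 28 gave 3.46, 7.53 and 2.46 CPM against 12.3, 9.02 and 10.6 CPM in water, with no overlap at either day (-1.77 ± 0.23 (SE, adjusted p = 0.00632)). All water libraries of day 28 lay below those of day 14. Nos2, the inducible nitric oxide synthase, had 1.8, 1.67 and 1.76 CPM against 4.54, 7.68 and 2.88 CPM in water at day 14 and 0.518, 0.836 and 0.399 CPM against 2.5, 2.41 and 3.41 CPM at day 28 (-2.02 ± 0.30 (SE, adjusted p = 0.00798)), and its exons overlap those of another gene. At day 28 every sorafenib library had less than 1 CPM of Nos2, and 1 count in replicate 3 equals 0.965 CPM before TMM scaling. The fitted -2.02 for Nos2 is therefore not a measure of size. Nox4 and Nos2 were the 2 of 22 genes of NADPH oxidases and the nitric oxide pathway that fell. Of 31 antioxidant genes 1 changed, near the 4.41% called over all genes. It was the glutathione peroxidase Gpx1, at -0.81 ± 0.19 (SE, adjusted p = 0.0328).

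Several genes of sterol and fatty acid synthesis fell. Of 28 lipid storage and synthesis genes, 5 fell and none rose (median -0.11). Pnpla3, a lipid droplet protein, stood at 1.98, 4.31 and 2.24 CPM in sorafenib against 9.23, 20.1 and 34.1 CPM in water at day 14 and at 13.2, 10.9 and 7.18 CPM against 15, 22.7 and 19.5 CPM at day 28. The log2 fold change was -2.89 at day 14 and -0.88 at day 28, and -1.89 ± 0.30 (SE, adjusted p = 0.00979) on average. Sqle, the squalene epoxidase of cholesterol synthesis, stood at 5.04, 3.97 and 4.72 CPM against 7.25, 10.5 and 8.2 CPM in water at day 14 and at 3.69, 1.67 and 3.52 CPM against 7.12, 10.5 and 8.95 CPM at day 28 (-1.16 ± 0.18 (SE, adjusted p = 0.00979)). Srebf2, which encodes the transcription factor that drives cholesterol synthesis, was at -0.54 ± 0.10 (SE, adjusted p = 0.0185), Hmgcs1 at -0.61 ± 0.12 (SE, adjusted p = 0.0215) and the fatty acid desaturase Fads2 at -0.61 ± 0.12 (SE, adjusted p = 0.0185). Pnpla3 and Sqle passed without sorafenib day 28 replicate 2, and the other 3 did not. None of 30 genes of PPAR alpha targets and fatty acid oxidation passed (median -0.0012, and above 0 with RLE factors, DESeq2 or the 5 CPM filter). Their median was 0.23 at day 14 and -0.22 at day 28, so the averaged value does not show that neither day moved.

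On the higher side, several enzymes of drug and amino acid breakdown rose. Fmo2, a flavin-containing monooxygenase (chromosome 13, 75221149 to 75244377), stood at 178, 226 and 182 CPM in sorafenib against 75.8, 40.1 and 73.7 CPM in water at day 14. At day 28 it stood at 268, 124 and 268 CPM against 102, 115 and 105 CPM in water. The lowest sorafenib library of day 28, replicate 3, was close to the highest water library, and the average was 1.34 ± 0.19 (SE, adjusted p = 0.00779). Of 33 genes of xenobiotic metabolism and transport, 8 rose and none fell (median 0.39). Sult1a1, a sulfotransferase, rose by 1.09 ± 0.22 (SE, adjusted p = 0.0215) and the glutathione transferase Gstm1 by 0.56 ± 0.15 (SE, adjusted p = 0.0458). Cyp2e1 was at 11.4, 12.4 and 9.57 CPM against 3.18, 0.865 and 1.95 CPM in water at day 14 and at 11.7, 5.02 and 19.9 CPM against 3.73, 3.84 and 11.6 CPM at day 28, where the groups overlapped (1.78 ± 0.35 (SE, adjusted p = 0.0215)). Fmo6 and Cyp46a1 rose from low levels, and Cyp1a1, the classic target of the aryl hydrocarbon receptor, was at 7.26, 5 and 1.57 CPM against 0.0522, 0.102 and 1.41 CPM in water at day 14 and 1.21, 0 and 2.06 CPM against 0.0491, 0.69 and 0.0474 CPM at day 28. At such levels the fitted 2.79 for Cyp1a1 is not a measure of size. Only Fmo2 of the 8 passed without sorafenib day 28 replicate 2, and 7 passed without replicate 3.

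Prodh1, proline dehydrogenase, which starts proline breakdown in mitochondria, had the smallest p of the higher genes that the naming rule gave. Prodh1 (chromosome 11, 82910043 to 82927305) stood at 205, 197 and 164 CPM in sorafenib against 78, 106 and 149.6 CPM in water at day 14 and at 266, 250 and 194 CPM against 87, 93.4 and 82.4 CPM at day 28. The groups were apart at both days, by a wide margin at day 28 (1.10 ± 0.15 (SE, adjusted p = 0.00632)). Amt, a subunit of the glycine cleavage system of mitochondria, stood at 33.4, 23.6 and 22.7 CPM against 12.1, 14.2 and 14.5 CPM in water at day 14. Day 28 gave 25.5, 25.9 and 14 CPM against 9.48, 10.3 and 6.96 CPM in water (1.10 ± 0.17 (SE, adjusted p = 0.00979)), and its exons overlap those of another gene. They were the 2 of 30 genes of proline, serine, glycine and one-carbon metabolism that changed (median -0.05, and above 0 with the 5 CPM filter or the gene length trend removed).

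Other genes that rose whichever library was left out had no list in common. Galnt15, an enzyme that starts O-linked glycans, stood at 23.7, 34 and 24.4 CPM in sorafenib against 15.2, 8.4 and 6.89 CPM in water at day 14 and at 29.5, 20.9 and 25.2 CPM against 11.9, 8.72 and 11 CPM at day 28 (1.36 ± 0.19 (SE, adjusted p = 0.00632)). Its exons overlap those of another gene. Plag1, a zinc finger transcription factor, stood at 86.2, 83.7 and 72.7 CPM against 57.2, 53.6 and 56.4 CPM in water at day 14 and at 60.4, 71.9 and 79.8 CPM against 33.3, 41.6 and 36 CPM at day 28 (0.73 ± 0.10 (SE, adjusted p = 0.00632)). Zbtb25, another zinc finger protein, rose by 0.74 ± 0.11 (SE, adjusted p = 0.00798). Myo3b, a class III myosin, was at 1.51 ± 0.23 (SE, adjusted p = 0.0088), but sorafenib day 28 replicate 3 lay at 4.18 CPM, inside the water range of day 28. Zmynd12 had 15, 16 and 10 counts in the water libraries of day 14 and 7, 6 and 6 in those of day 28, so its fitted 2.45 rests on few counts. The other 5 of the 12 higher genes carry locus numbers.

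The named rule on smallest p and separate libraries also gave Fyb2 (1.08 ± 0.17), the acetyltransferase Nat8b (0.92 ± 0.16), the receptor phosphatase Ptprs (0.66 ± 0.12), the centriole protein Cep295 (0.73 ± 0.13), the lysophospholipase Pnpla7 (0.75 ± 0.14), Ca11 (0.80 ± 0.15) and the clock gene Per2 (1.02 ± 0.19) among higher genes. Among lower genes the rule gave Nrep (-1.34 ± 0.17), Lsm11, a protein of histone mRNA processing (-0.88 ± 0.12), and the membrane protein Myadm (-0.79 ± 0.12). Nrep was at 72, 56.5 and 62.7 CPM against 115, 192 and 90.1 CPM in water at day 14 and at 21.9, 28.4 and 23.3 CPM against 81.3, 61.4 and 79.2 CPM at day 28.

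Clk3, Clk4 and Srpk3, kinases that phosphorylate SR proteins, rose, and RBM20 itself did not pass. Of 42 SR proteins, hnRNPs and splicing regulators, 4 rose and none fell (median 0.07). Clk4, a kinase of SR proteins, stood at 97.2, 86.6 and 84.9 CPM in sorafenib against 68, 65.4 and 59.9 CPM in water at day 14 and at 67.5, 68.6 and 71.5 CPM against 47.4, 49.9 and 36 CPM at day 28, apart at both days (0.56 ± 0.10 (SE, adjusted p = 0.0183)). Clk3 rose by 0.69 ± 0.13 (SE, adjusted p = 0.0185), the muscle kinase Srpk3 by 0.57 ± 0.12 (SE, adjusted p = 0.0237) and the SR protein Srsf5 by 0.45 ± 0.11 (SE, adjusted p = 0.0382). Of the other kinases of these families in the list, Clk1 was at 0.35 (adjusted p = 0.0977), Clk2 at 0.18 (0.425), Srpk1 at -0.13 (0.42) and Srpk2 at -0.01 (0.979), none past the threshold. Rbm20 stood at 264, 361 and 324 CPM against 234, 317 and 348 CPM in water at day 14 and at 286, 237 and 276 CPM against 238, 287 and 316 CPM at day 28, with overlap at both days (0.00 ± 0.13 (SE), adjusted p = 0.989). Of 25 genes, Rbm20 and its known splicing targets, only Rtn4 changed (-0.46 ± 0.12 (SE, adjusted p = 0.0417)), a share near the 4.41% called over all genes. Ttn was at -0.16 ± 0.22, Camk2d at -0.13 ± 0.14 and Ldb3 at 0.13 ± 0.17. Gene counts sum over exons and say nothing about the isoforms of these genes.

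Of 36 sarcomere and Z-disc genes, 2 rose and none fell, a share near the 4.41% called over all genes (median -0.07, and 0.02 with the 5 CPM filter). Myh7, the slow myosin heavy chain that the adult rat ventricle re-expresses under load, stood at 2903, 3120 and 5509 CPM in sorafenib against 1739, 1456 and 1263 CPM in water at day 14. At day 28 it stood at 5958, 6057 and 8520 CPM against 4701, 4572 and 6850 CPM in water, where the groups overlapped. The log2 fold change was 1.37 at day 14, 0.35 at day 28 and 0.86 ± 0.21 (SE, adjusted p = 0.0375) on average. Tcap, a Z-disc protein that binds titin, rose by 0.84 ± 0.21 (SE, adjusted p = 0.0407), and Nmrk2, a muscle kinase of NAD synthesis, by 0.75 ± 0.15 (SE, adjusted p = 0.0215). Nppa, the atrial natriuretic peptide, stood at 64.7, 37.7 and 212 CPM against 11.2, 20.7 and 12.7 CPM in water at day 14 and at 295, 149 and 58.5 CPM against 159, 250.5 and 18.9 CPM at day 28, and did not pass (1.53 ± 0.64 (SE, adjusted p = 0.176)). Nppb did not pass either (0.40 ± 0.25 (SE, adjusted p = 0.339)).

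Gja1, connexin 43, the main gap junction protein of ventricular muscle, was lower at both days. Gja1 (chromosome 20, 35756007 to 35768481) stood at 224, 319 and 438 CPM in sorafenib against 469, 699 and 674 CPM in water at day 14 and at 268, 337 and 213 CPM against 538, 655 and 987 CPM at day 28. The highest sorafenib library was below the lowest water library at each day (-1.17 ± 0.20 (SE, adjusted p = 0.0148)). Gja1 was the only one of 19 connexin and intercalated disc genes that changed, a share near the 4.41% called over all genes. Among 34 channel genes 3 fell and 1 rose (median -0.23). Kcnj8, a subunit of the ATP-sensitive potassium channel of pericytes and smooth muscle, was at -0.63 ± 0.12 (SE, adjusted p = 0.0185), Kcnk2 at -1.26 ± 0.32 (SE, adjusted p = 0.0434), Kcnt2 at -0.88 ± 0.23 and the sodium channel Scn7a at 0.55 ± 0.13. Of 34 calcium handling genes 3 fell and none rose (median -0.12). Mcu, the pore of the mitochondrial calcium uniporter, was at -0.53 ± 0.13 (SE, adjusted p = 0.0375). Sarcolipin (Sln), an atrial inhibitor of the calcium pump, had 0, 0 and 0 counts in sorafenib and 14, 93 and 18 in water libraries at day 28. At day 14 it had 7, 1 and 5 counts in sorafenib and 62, 15 and 14 in water libraries, and its fitted -5.35 is no measure of size. The summed level of 10 atrial markers was 221.3 to 386.9 CPM in sorafenib against 246.9 to 305.3 CPM in water at day 14 and 270.9 to 440.7 CPM against 299.7 to 492.8 CPM at day 28. Of 31 genes of PKA anchoring and phosphodiesterases, 3 fell and 1 rose. Sphkap, an anchoring protein of PKA, was at -0.99 ± 0.22 (SE, adjusted p = 0.0301), the mitochondrial anchor Akap1 at -0.56 ± 0.15, the catalytic subunit Prkacb at -0.40 ± 0.09 and Akap8 at 0.38 ± 0.10. The alpha adrenergic receptor Adra1d was the only one of 24 genes of its list that changed (-1.28 ± 0.32 (SE, adjusted p = 0.0419)). That share is near the 4.41% called over all genes, and Adra1d passed in 10 of 22 alternatives. Yap1 at -0.54 ± 0.12 (SE, adjusted p = 0.0264) and its partner Tead1 at -0.72 ± 0.17 (SE, adjusted p = 0.0377) fell in a list of 35 Wnt and Hippo genes with 3 that fell and 1 that rose.

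**Figure D4:**
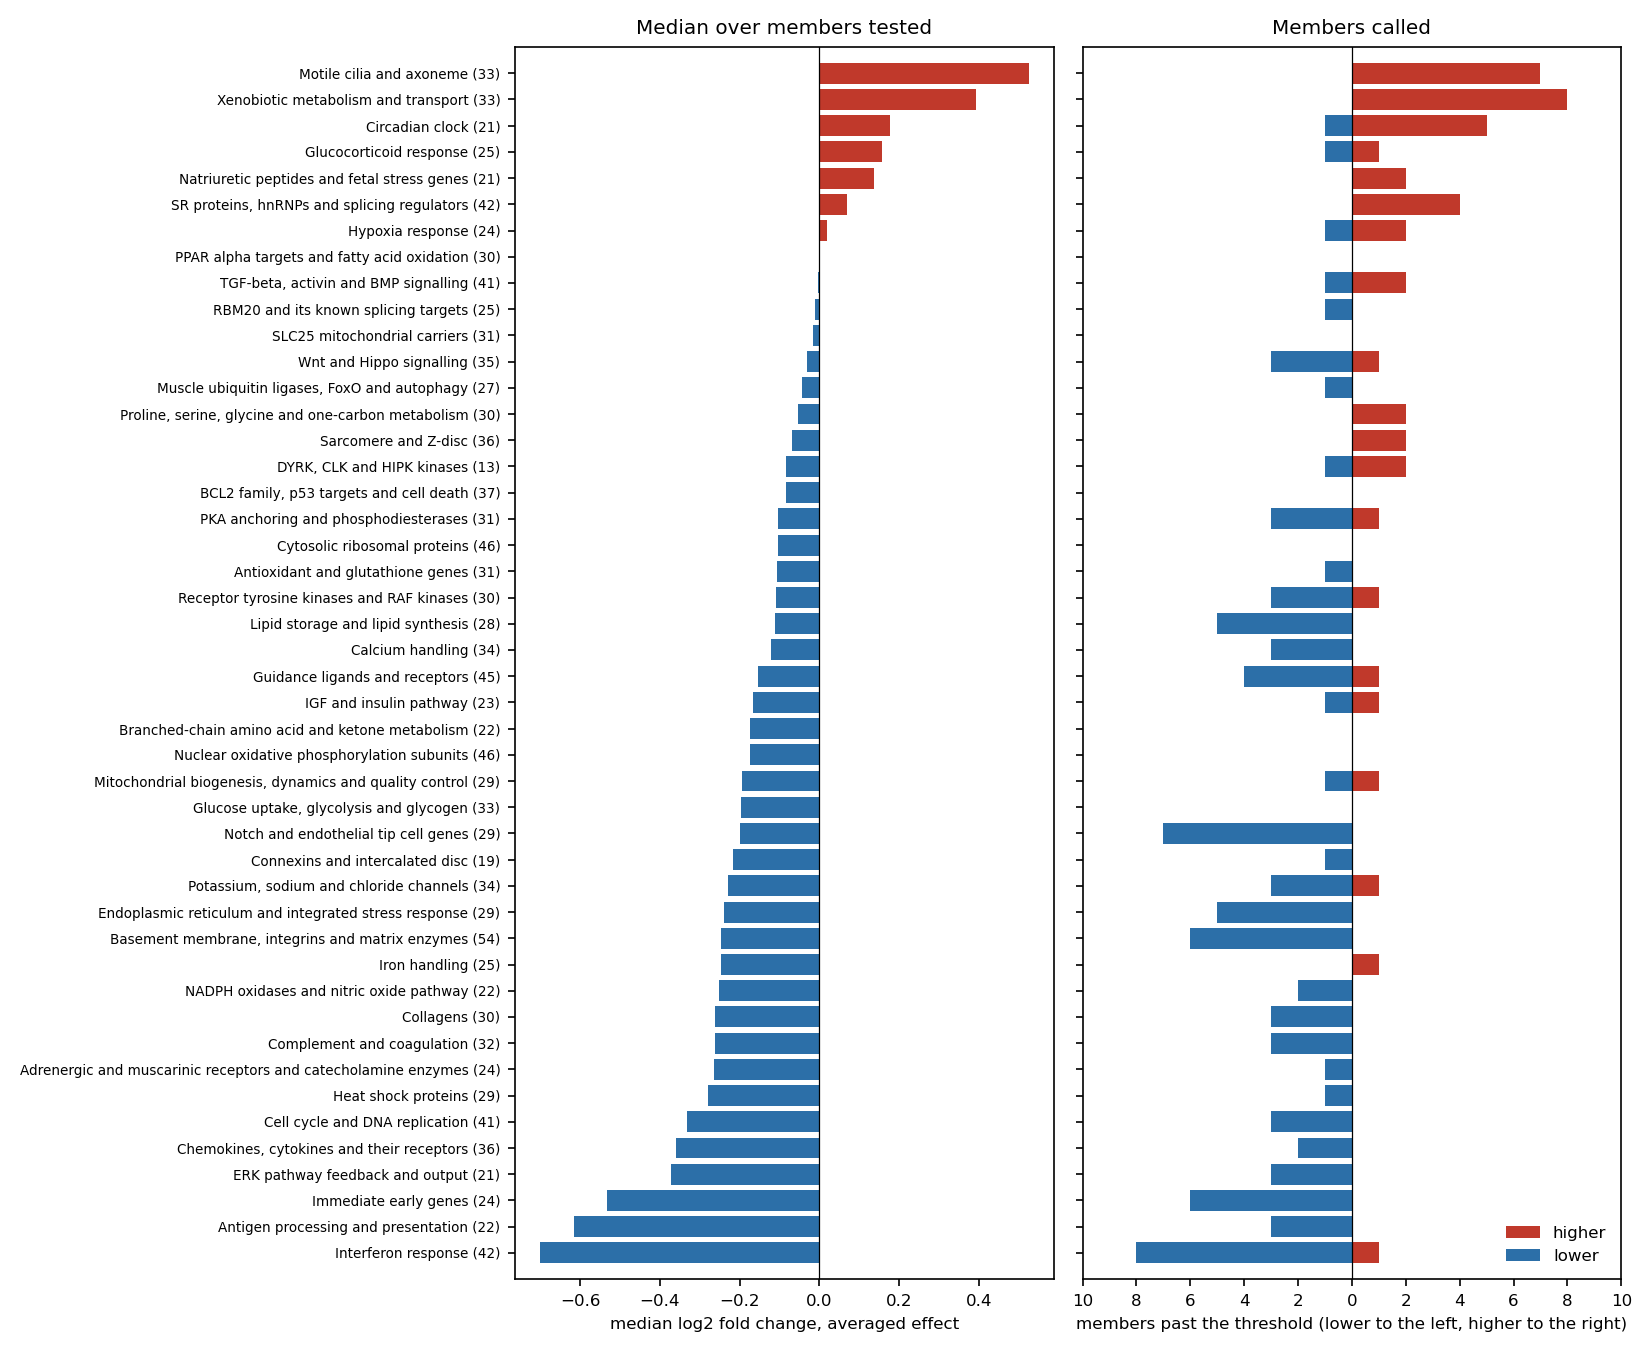
Median log2 fold change of the averaged effect (left) and number of members past the threshold, lower to the left and higher to the right of 0 (right), for 46 gene lists with the number of members tested in brackets. Medians are below 0 in 39 lists, run lowest in the interferon list, and 7 lists have no member called.

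Of 29 genes of endoplasmic reticulum and integrated stress, 5 fell and none rose (median -0.24). The protein disulfide isomerase Pdia6 stood at 61.7, 76.4 and 81.5 CPM in sorafenib against 106, 117 and 119 CPM in water at day 14 and at 69.7, 51.8 and 74.2 CPM against 83.2, 104 and 128 CPM at day 28, apart at both days (-0.65 ± 0.13 (SE, adjusted p = 0.0199)). Pdia4 was at -0.59 ± 0.14 (SE, adjusted p = 0.0374), the chaperone Hsp90b1 at -0.61 ± 0.16 (SE, adjusted p = 0.0458), the lectin chaperone Canx at -0.55 ± 0.15 (SE, adjusted p = 0.0492) and Sdf2l1 at -1.10 ± 0.29 (SE, adjusted p = 0.0493). Hspa5, the main chaperone of the compartment, was at -0.74 ± 0.21 and missed the threshold (adjusted p = 0.056). Only Pdia6 of the 5 passed without sorafenib day 28 replicate 3.

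Interferon response genes had the lowest median of the 46 lists (-0.70), with 8 of 42 that fell and 1 that rose. Irf7, a transcription factor of the response, stood at 22.3, 18.9 and 13.9 CPM in sorafenib against 43.1, 32.1 and 47.1 CPM in water at day 14 and at 11.1, 15.1 and 23.3 CPM against 39.9, 18.8 and 37.6 CPM at day 28. The groups were apart at day 14 and overlapped at day 28 (-1.04 ± 0.22 (SE, adjusted p = 0.025)). Rsad2 was at -1.05 ± 0.20 (SE, adjusted p = 0.0185), Mx2 at -1.48 ± 0.28 (SE, adjusted p = 0.0205) and the membrane tether Bst2 at -0.76 ± 0.18 (SE, adjusted p = 0.0343), while Oas1k rose by 1.55 ± 0.28 (SE, adjusted p = 0.0183). The mean of the list relative to the water mean of the same day was between -1.01 and -0.10 in sorafenib libraries and between -0.18 and 0.27 in water libraries of day 14. At day 28 it was between -0.80 and -0.58 in sorafenib and between -0.47 and 0.49 in water libraries. Without sorafenib day 14 replicate 5, 12 fell and 1 rose. Without sorafenib day 28 replicate 2, none of the list passed. Of 22 antigen presentation genes, all 22 had a log2 fold change below 0 and 3 class II genes fell, RT1-Da at -1.06 ± 0.27 (SE, adjusted p = 0.0462), RT1-Ba at -1.05 ± 0.28 and RT1-DMa at -1.12 ± 0.30. They passed in 7 of 22, 4 of 22 and 5 of 21 alternatives. The list mean was between -0.82 and -0.41 in sorafenib and between -0.51 and 0.73 in water libraries of day 14. At day 28 it was between -0.90 and -0.21 in sorafenib and between -0.23 and 0.20 in water libraries, so the groups overlapped at both days.

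Macrophage markers were on the lower side too, and whether they moved with these groups was not tested. Of 17 tested, 4 fell (Adgre1, Cybb, C1qa and C1qb, at -1.31, -1.14, -1.23 and -0.98) and none rose (median -0.77). Their summed level was 141 to 336.5 CPM in sorafenib against 280.6 to 525.6 CPM in water at day 14 and 159 to 487.5 CPM against 347.2 to 565.2 CPM at day 28, so that the ranges overlapped at both days. The calls of C1qa and C1qb held in 5 and 7 of 22 alternatives. None of 8 lymphocyte markers tested was called (median -0.22). The part of the number of immune cells in the interferon and class II genes was not tested. Of 24 immediate early genes 6 fell and none rose (median -0.53). Atf3 was at -1.26 ± 0.25 (SE, adjusted p = 0.0214), Egr1 at -1.58 ± 0.35 (SE, adjusted p = 0.029), Dusp1 at -0.61 ± 0.13 (SE, adjusted p = 0.0231), Btg2 at -0.57 ± 0.12 (SE, adjusted p = 0.0251), and Fos and Klf6 at -1.2 ± 0.29 and -0.49 ± 0.12.

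**Figure D5:**
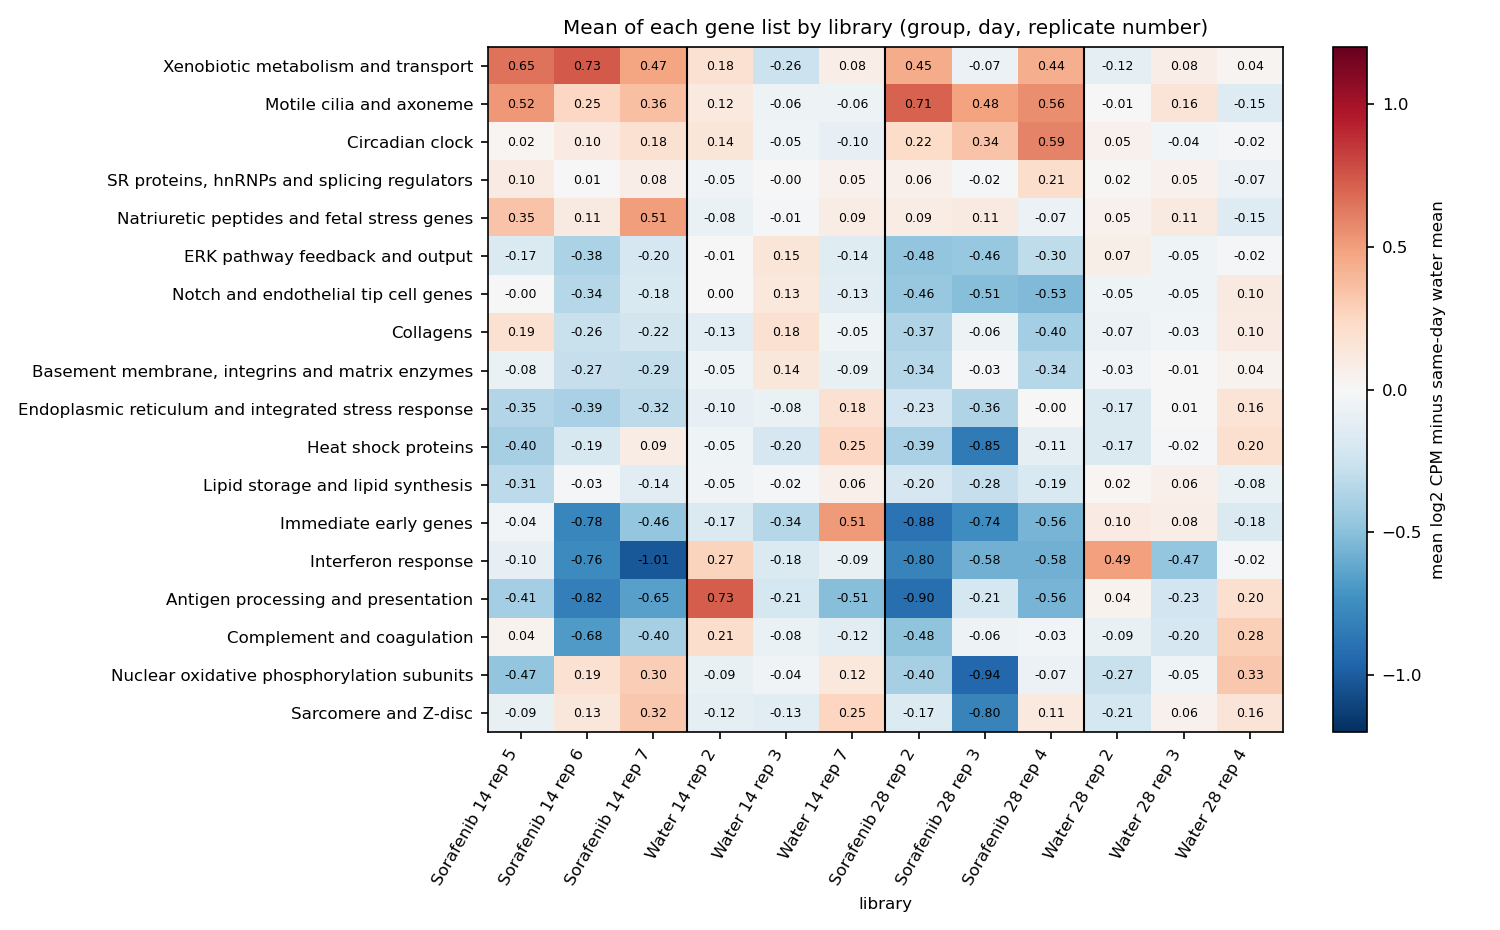
Mean over list members of log2 CPM minus the same-day water mean, for 18 gene lists (rows) and 12 libraries (columns: sorafenib then water of day 14, sorafenib then water of day 28). The sorafenib columns are above the water columns of their day for the cilia list and below them for the ERK list, while sorafenib day 28 replicate 3 stands lowest in the oxidative phosphorylation (-0.94) and sarcomere (-0.80) lists.

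Energy metabolism gave no call. None of 46 nuclear oxidative phosphorylation subunits (median -0.17), 33 genes of glucose uptake, glycolysis and glycogen (-0.20), 31 SLC25 carriers (-0.02, and 0.0040 with RLE factors), 22 genes of branched-chain amino acid and ketone metabolism (-0.17) or 46 cytosolic ribosomal proteins (-0.10) passed, and none of 37 genes of the BCL2 family, p53 targets and cell death (-0.08). Together with fatty acid oxidation these lists hold 242 genes. In edgeR 9 of them were higher and 28 lower at an unadjusted p below 0.05, a level that 24.3% of all genes tested passed, DESeq2 called 4 higher and 7 lower, and limma voom called 6 higher and 8 lower. For oxidative phosphorylation the median was 0.03 at day 14 and -0.45 at day 28, where the shallow library was the lowest. Protein genes of the mitochondrial genome were not analysed here. Of 29 genes of mitochondrial biogenesis and quality control, 1 rose and 1 fell. The one that fell was Gabpa, a transcription factor of mitochondrial genes (-0.47 ± 0.12 (SE, adjusted p = 0.0408)). Near the share of 4.41% called over all genes, 1 of 25 iron genes changed, namely Hamp, the hormone hepcidin. It stood at 1.08, 1.44 and 1.51 CPM in sorafenib against 0.209, 0.254 and 0.0543 CPM in water at day 14 and at 4.95, 5.85 and 6.78 CPM against 5.6, 3.1 and 3.13 CPM at day 28, where the groups overlapped (1.73 ± 0.31 (SE, adjusted p = 0.017)). In the water libraries of day 14, 1 count equals 0.054 to 0.055 CPM before TMM scaling. At such levels the fitted 1.73 for Hamp is not a measure of size, and it ran from 1.41 to 2.60 over the alternatives. Of 24 hypoxia genes, Ndrg1 (0.72 ± 0.15 (SE, adjusted p = 0.023)) and Hif3a (1.40 ± 0.35 (SE, adjusted p = 0.0423)) rose and P4ha1, an enzyme of collagen hydroxylation, fell (-0.48 ± 0.13 (SE, adjusted p = 0.0488)).

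Of 21 clock genes 5 rose and 1 fell (median 0.18). Per2 stood at 134, 149 and 139 CPM in sorafenib against 97, 60.6 and 76.5 CPM in water at day 14 and at 65.1, 91.1 and 135 CPM against 55.2, 43.7 and 29.8 CPM at day 28. Per3 rose by 1.11 ± 0.21 (SE, adjusted p = 0.0189), Ciart by 1.5 ± 0.30 (SE, adjusted p = 0.0215) and Dbp by 1.03 ± 0.24 (SE, adjusted p = 0.0322), all repressors or outputs of the clock. Cry2, another repressor, rose by 0.64 ± 0.17 (SE, adjusted p = 0.0445), and Clock, the activator, fell (-0.49 ± 0.09 (SE, adjusted p = 0.0185)). Arntl, the partner of Clock, was at -1.11 ± 0.30 (adjusted p = 0.0524). The labels do not give the hour of tissue collection.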

How the data were processed

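RNA of heart tissue was depleted of ribosomal RNA and sequenced as read pairs, per the labels. The authors deposited raw counts per gene, 1 table per day, made by featureCounts 2.0.1 in paired mode with no strand setting on a RefSeq annotation of mRatBN7.2, per the file headers. The submitters' processing notes also name STAR, without its version. Strand was marked by the kit but ignored in counting, which leaves antisense or overlapping genes unresolved. This concerns 5788 of the 34322 genes, whose exons overlap another gene's. The tables were joined by gene, and 2 columns of day 14 that match no sample were not used.

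The test was edgeR 4.0.16 in R 4.3.3 (filterByExpr, TMM, robust quasi-likelihood fit of 4 groups). The averaged effect is the contrast with weight 0.5 per day, its SE is the size of the contrast over the square root of F, and p-values were adjusted over all 18174 genes tested. The days were also compared with each other, each required to pass, and fitted alone. Alternatives were DESeq2 1.42.0, limma 3.58.1 voom with sample weights, RLE factors, 3 filters on low counts, no robust dispersion, an additive model, the title number as block, removal of each library's gene length trend (lowess span 0.3), and each library left out. The code was tested on simulated counts. No libraries of a group agreed within sampling noise (smallest chi-square per gene 7.605).

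Members and gene lists were chosen with earlier results of these data known. The naming rule took, per direction, the 15 genes of smallest p among called genes with a mean of 5 CPM or more, libraries apart at both days and no locus number, up to 4 members of smallest p per list, 10 genes each for the rules on both days and on the day difference, and some by name. The other list members named, and the genes called whichever library was left out, were named after their values were seen. Lists are described by counts and medians. Of the symbols, 27234 matched a RefSeq gene table (GRCr8), used only for gene types. A few genes that the naming rule gave are not reported here.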

Additional observations from a re-analysis of the deposited data

How the results depend on the processing

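DESeq2 called 1776 genes for the averaged effect (828 higher, 948 lower) and limma voom 2542 (1111 and 1431). These lists held 793 and 789 of the 801 calls. With RLE factors, no filter, a filter of 1 CPM or 5 CPM in 3 libraries, no robust dispersion, an additive model or the gene length trend removed, the count lay within 1.5 times of the main one. With 1 library left out it ranged from 35 to 1562 (15 to 578 higher, 20 to 984 lower). For the day 14 effect in the fit of 12 libraries, 4 genes passed in edgeR, 163 with DESeq2, 22 without a filter, 1 with the 5 CPM filter, 247 with voom and 0 to 25 with a library left out. For day 28 the main count was 53. It was 698 with DESeq2, 155 without a filter, 85 with the 1 CPM filter, 691 with voom and 0 to 87 with a library left out. The day difference gave 5 genes with DESeq2 and 0 to 1 with a library left out, and both days each gave 6 with DESeq2, 1 with voom and 0 with any library left out. The share of genes chosen at day 14 with the same sign at day 28 ranged from 77.37 to 91.46% with a library left out.

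Same-numbered libraries of day 28 had correlations of deviations of 0.1154, 0.002376 and 0.1628, and number 7 of day 14 had 0.05205. Pairs of other numbers ran from -0.1614 to 0.05043 at day 28 and from -0.07737 to 0.1041 at day 14. Correlations over 3 libraries per group cannot settle whether a shared number marks a shared batch, and this was not tested. With the replicate block the averaged effect gave 38 genes (13 higher, 25 lower), day 14 gave 2 and day 28 gave 743. Sorafenib day 28 replicates 2 and 4 correlated best with the water library of their own number, and replicate 3, the shallow library, did not. Depth limits genes near 1 CPM in that library.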

Other observations

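The list of motile cilia and axoneme genes, written with earlier results of these data known, had the highest median of the 46 lists (0.53). Of 33 members tested, 7 rose and none fell. They were Zmynd12, Ttll9, Mroh7, Erich6, Ankar, Stkld1 and the dynein heavy chain Dnah10, with log2 fold changes of 1.27 to 2.45. Without sorafenib day 28 replicate 2, only Zmynd12 passed. Several lie at low levels. Of the 53 list members found, 33 were tested, and 19 stayed below 1 CPM in all libraries. The filter on low counts works by group, so a member could enter the test through the group where it is high. What this adds to the median was not tested. Erich6 stood at 1.26, 1.5 and 1.45 CPM in sorafenib against 0.835, 1.78 and 1.95 CPM in water at day 14, and at 5.18, 2.51 and 6.38 CPM in sorafenib against 0.786, 1.08 and 0.568 CPM in water at day 28. Of the airway markers, Scgb1a1 rose (1.80, at most 2.858 CPM) and Tppp3 fell (-1.02, mean 13.22 CPM). At the level of Scgb1a1 the fitted 1.80 is not a measure of size. Scgb3a2 and Bpifa1 were at 0 in all libraries, and 7 of 10 markers stayed below 1 CPM.

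The higher and lower genes differed in kind. Long noncoding RNAs made up 22.26% of the higher genes with a known type (65 of 292), 1.412% of the lower ones (6 of 425) and 11.42% of all genes tested. Symbols of locus numbers made up 36.09% of the higher, 3.425% of the lower and 21.08% of all genes tested. Median exon length was 5004 bases among higher, 3440 among lower and 3218 among all genes. Exons overlapped those of another gene in 29.48% of the higher, 15.98% of the lower and 22.78% of all genes. The share of higher genes that are long noncoding ranged from 12.29 to 26.96% over the alternatives other than the title number as block, lowest with the 5 CPM filter. Long noncoding RNAs took 1.588, 1.236 and 1.127% of counts in sorafenib against 1.118, 1.122 and 1.038% in water libraries of day 14. At day 28 they took 1.14, 1.419 and 0.9859% in sorafenib against 1.034, 0.8246 and 0.4829% in water, where the groups overlapped. The part of library composition in the split of directions was not tested.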
